A study of Mus musculus with 6 samples.

Results

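Cish, Socs1, Socs2 and Socs3 encode the cytokine-induced members of the suppressor of cytokine signaling (SOCS) family and were taken by their symbols from the single-cell count table, as 4 of its 14597 genes. The remaining SOCS genes, Socs4 to Socs7, served as the comparison within the family. SOCS proteins carry an SH2 domain, which binds phosphotyrosine, and a SOCS box, which recruits a ubiquitin ligase. Cytokine receptors activate JAK kinases and STAT transcription factors, the STATs turn on SOCS genes, and the SOCS proteins then dampen the same receptors. In T cells Cish and Socs2 are known as targets of STAT5, which IL-2 and related cytokines activate, Socs1 is known as a feedback inhibitor of interferon-γ and common γ chain cytokine signaling, and Socs3 as a feedback inhibitor of receptors that use gp130.

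The cells were TCRβ+ T cells sorted by flow cytometry from subcutaneous B16-F10 tumors, a mouse melanoma line, in Foxp3-EGFP-DTR mice. In these animals the endogenous Foxp3 gene drives EGFP and the human receptor for diphtheria toxin (DTx), which therefore kills Treg cells and acts on any other cell that transcribes Foxp3. All 6 samples were of this genotype, 3 given PBS and 3 given DTx, with no age in the labels. The study compared them to learn what T cells do once Treg cells are gone.

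The deposited table held 12818 cells and 21816565 UMIs (unique molecular identifiers, which count captured mRNA molecules). Each cell carried a library number from 1 to 6, and no label tied a number to a treatment, so the PBS and DTx cells were not told apart and the table was treated as 1 pooled sample. All comparisons were therefore between kinds of cells, no test was run, and the intervals are 95% intervals of counting error only. Library totals ran from 1916305 to 5127776 UMIs and library medians from 610 to 2499.5 UMIs per cell. At least 1 of 6 T cell markers was found in 95.4% of cells, with a summed level between 38.3 and 42.2 per 10,000 UMIs in each library. Markers of other cells were sparser. The whole table held 237 UMIs of 3 myeloid genes, 179 of 2 B cell genes, 192 of 2 NK cell genes and 67 of 4 melanoma genes. The 2 stromal genes had the most, with 610 UMIs, and were found in 4.51% of cells. Some 76 of 12742 barcodes occurred in more than 1 library, and no pair of libraries held repeated data.

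The genes lie on 4 chromosomes, in mouse build GRCm38 with GENCODE gene models. Cish (ENSMUSG00000032578.7) spans chr9:107296026-107302784 on the plus strand. Socs2 (ENSMUSG00000020027.18) spans chr10:95385362-95417180, Socs1 (ENSMUSG00000038037.5) chr16:10782240-10785536 and Socs3 (ENSMUSG00000053113.3) chr11:117966079-117970047, all on the minus strand. No annotated gene overlaps the Socs1, Socs2 or Socs3 models. Cish is overlapped by the antisense gene Gm17041, which held 37 UMIs, or 1.08% of the 3429 UMIs of Cish. Whether the counting used strand is not given in the sources used here.

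RefSeq promoter windows, from 250 bases before to 50 bases after the start of a gene, were at hand for 3 of the 4 genes, all but Socs2. They are shown because the levels below fell into 2 patterns, Cish with Socs2 and Socs1 with Socs3. Capitals mark the fixed letters of TTCNNNGAA, the spaced palindrome that STAT dimers are known to bind, and of GAAA repeated with a gap of 2 bases, which interferon regulatory factors are known to bind. Both strands were searched. All stretches are written 5′ to 3′ in the direction of the gene, in build GRCm38.p6: for Cish chr9:107296659-107296678, for Socs1 chr16:10785537-10785656 and for Socs3 chr11:117969457-117969566.
Cish: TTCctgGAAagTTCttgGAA
Socs1: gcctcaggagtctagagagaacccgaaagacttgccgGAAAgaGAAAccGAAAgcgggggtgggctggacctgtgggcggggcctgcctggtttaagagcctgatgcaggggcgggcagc
Socs3: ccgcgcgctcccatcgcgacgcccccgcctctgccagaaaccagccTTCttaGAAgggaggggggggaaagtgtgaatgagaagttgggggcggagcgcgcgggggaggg
The Cish stretch is the first 20 bases from the RefSeq start and holds 2 TTCNNNGAA matches, at positions 1 and 12. It lies inside the span of the GENCODE gene model, which starts further upstream. The Socs1 stretch is the 120 bases before the start and holds 2 overlapping matches of the GAAA repeat, which begin 83 and 77 bases upstream. The Socs3 stretch runs from 200 to 91 bases before the RefSeq start and holds 1 TTCNNNGAA match, which begins 154 bases upstream. This stretch too lies inside the span of its GENCODE gene model. Of all 32851 promoter windows of the same length, 8.3% held TTCNNNGAA and 3.44% held the GAAA repeat. A match describes letters and not binding. The matches did not follow the 2 patterns of level, since TTCNNNGAA was found for Cish and Socs3 and the GAAA repeat for Socs1 alone.

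The 4 genes were common among the SOCS family in these T cells. Cish was found in 2232 cells with 3429 UMIs, a pooled level of 1.57 UMIs per 10,000 (interval 1.52 to 1.63). Socs2 was found in 692 cells with 1020 UMIs, a level of 0.468 (0.439 to 0.497). Socs1 was found in 1487 cells with 1822 UMIs, a level of 0.835 (0.797 to 0.874), and Socs3 in 1622 cells with 2066 UMIs, a level of 0.947 (0.907 to 0.989). No cell held more than 7 Cish, 11 Socs2, 6 Socs1 or 10 Socs3 UMIs, and the 10 richest cells carried 1.84% to 6.37% of a gene's UMIs, so no level rested on a few cells. Socs4, Socs6, Socs7 and Socs5 had 535, 175, 151 and 59 UMIs in all. The 5′ libraries count transcript ends and the counts were not divided by length, so levels are compared between cells and not between genes.

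The libraries stood apart in all 4 genes, and they did so in opposite ways. Cish, an inhibitor that acts at the IL-2 receptor and the T cell receptor, had 0.861, 0.355, 1.06, 2.26, 2.11 and 1.76 UMIs per 10,000 in libraries 1 to 6. Socs2, which limits growth hormone and STAT5 signaling, had 0.22, 0.0346, 0.23, 0.626, 0.759 and 0.54. Both were lowest in library 2, and their values in libraries 4, 5 and 6 lay above those in libraries 1, 2 and 3 without overlap of the intervals. The highest library exceeded the lowest 6.36-fold for Cish and 21.9-fold for Socs2, and without library 2, which had 11 Socs2 UMIs, 2.63-fold and 3.44-fold.

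Socs1 and Socs3 ran the other way. Socs1, whose product binds JAK kinases directly, had 1.1, 1.37, 1.1, 0.605, 0.657 and 0.586 UMIs per 10,000 in libraries 1 to 6. Socs3, whose product binds gp130 and JAK kinases, had 1.79, 1.19, 1.69, 0.829, 0.445 and 0.52. For both genes libraries 1, 2 and 3 lay above libraries 4, 5 and 6 without overlap of the intervals. The highest library exceeded the lowest 2.33-fold for Socs1 and 4.02-fold for Socs3. Of the 15 pairs of libraries, 13 had separate intervals for Cish, 12 for Socs2, 10 for Socs1 and 13 for Socs3. In order of level, the neighbours that did not differ beyond counting error were libraries 4 and 5 and libraries 3 and 1 for Cish, and libraries 5, 4 and 6 and libraries 3 and 1 for Socs2. For Socs1 libraries 2, 3 and 1 formed a run of such neighbours and libraries 5, 4 and 6 another, and for Socs3 libraries 1 and 3 and libraries 6 and 5 did not differ.

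**Figure D1:**
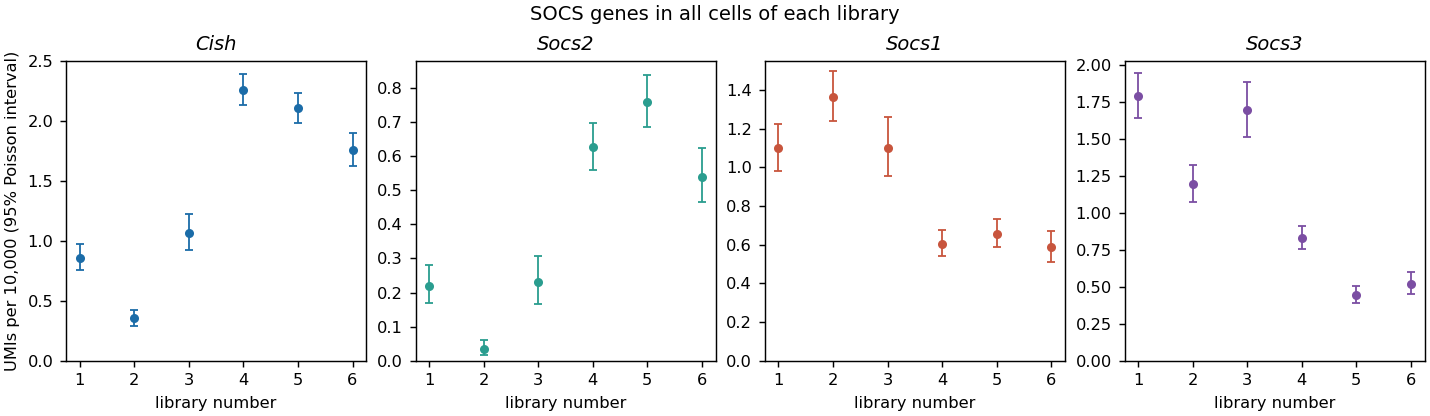
Levels of Cish, Socs2, Socs1 and Socs3 in all cells of each library, as UMIs per 10,000 (vertical axes, each from 0) against the library number (horizontal axes). Points are pooled levels and bars are 95% Poisson intervals. Cish and Socs2 sit higher in libraries 4, 5 and 6, with 2.26, 2.11 and 1.76 for Cish, and Socs1 and Socs3 sit higher in libraries 1, 2 and 3, with 1.79, 1.19 and 1.69 for Socs3.

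Other properties of the libraries moved with these levels. Cells with naive T cell genes (UMIs of at least 2 of Ccr7, Lef1, Tcf7 and S1pr1 and none of Gzmb, Ifng, Il13, Il4 or Mki67) made up 21.2%, 46.8%, 12.5%, 4.41%, 2.52% and 1.72% of libraries 1 to 6. Cycling cells (UMIs of at least 2 of Mki67, Top2a, Birc5, Ccnb2 and Cdk1) made up 1.55%, 0.568%, 1.41%, 8.31%, 14.2% and 12.9%. Median depth was 1065, 1064, 610, 2499.5, 2063 and 1278 UMIs per cell. Within CD8+ T cells alone the same libraries were high: Cish ran from 0.16 to 0.53 in libraries 1, 2 and 3 and from 1.48 to 1.62 in libraries 4, 5 and 6, and Socs3 from 0.9 to 1.51 and from 0.342 to 0.696. Whether treatment, cell state, depth or handling set the library levels cannot be told apart here.

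The levels of 2 of the genes moved with depth. When the cells of each library were split into 4 depth bins of equal cell number, the pooled level of Socs3 was 1.7, 1.21, 0.924 and 0.674 per 10,000 from the shallowest to the deepest bin, and it was lower than in the shallowest bin in 6 of 6 libraries at every other depth. Socs1 went from 1.15 in the shallowest to 0.684 in the deepest bin. Cish went from 1.73 to 1.53 and Socs2 from 0.537 to 0.501, with overlapping intervals for both. Comparisons of gates below were matched by library, and those of cell states by library and depth bin.

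CD8+ T cells carried less Cish and Socs2 than CD4+ Tconv cells, in every library. CD4+ Tconv cells were the 1205 cells with a Cd4 UMI and none of Cd8a, Cd8b1 or Foxp3, and CD8+ T cells were the 4497 cells with a Cd8a or Cd8b1 UMI and none of Cd4 or Foxp3. No UMI of any of these genes was found in 6838 of the 12818 cells, so a missing UMI does not show that a gene is silent. The CD4+ Tconv gate may therefore hold Treg cells without a captured Foxp3 UMI. Cish had 1.27, 0.337, 2.11, 3.16, 2.99 and 2.2 UMIs per 10,000 in CD4+ Tconv cells of libraries 1 to 6. In CD8+ T cells it had 0.453, 0.16, 0.53, 1.54, 1.62 and 1.48. The CD8+ value was the lower one in 6 of 6 libraries, with separate intervals in all but library 2, and the ratio of CD8+ to CD4+ within libraries was 0.511 (interval 0.464 to 0.562).

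Socs2 had 0.211, 0.112, 0.302, 1.17, 1.13 and 1.5 UMIs per 10,000 in CD4+ Tconv cells of libraries 1 to 6. In CD8+ T cells it had 0.0755, 0.0153, 0.208, 0.287, 0.362 and 0.357. The ratio was 0.278 (0.234 to 0.332), lower in CD8+ T cells in 6 of 6 libraries, with separate intervals in libraries 4, 5 and 6. Libraries 1, 2 and 3 had only 5, 2 and 4 UMIs in the CD4+ gate and their intervals overlapped. Leaving the naive-gene cells out of both gates, a comparison added after seeing the data, gave ratios of 0.505 for Cish and 0.27 for Socs2.

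Socs1 and Socs3 differed less between the lineages. Socs1 had 0.549, 1.18, 1.51, 0.69, 0.695 and 0.599 UMIs per 10,000 in CD4+ Tconv cells and 1.12, 0.938, 0.852, 0.501, 0.551 and 0.463 in CD8+ T cells of libraries 1 to 6. It was lower in CD8+ T cells in 5 of 6 libraries and 2.04-fold higher in library 1, with a ratio of 0.834 (0.708 to 0.982). Socs3 had 1.99, 0.955, 1.66, 0.857, 0.484 and 0.765 in CD4+ Tconv cells and 1.51, 0.9, 1.34, 0.696, 0.342 and 0.442 in CD8+ T cells. It was lower in CD8+ T cells in 6 of 6 libraries, with a ratio of 0.769 (0.661 to 0.894).

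**Figure D2:**
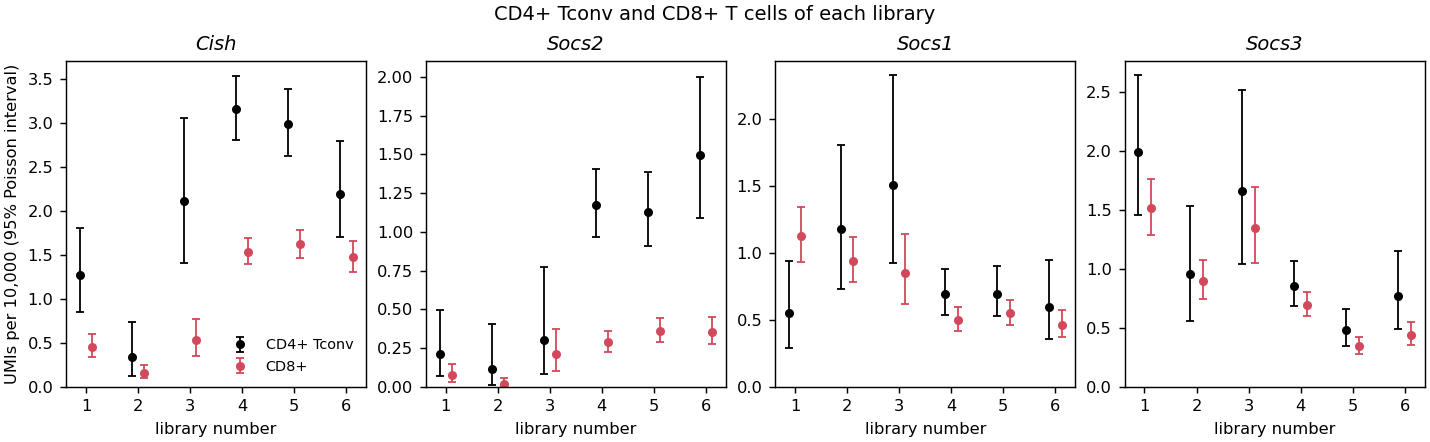
Levels in CD4+ Tconv cells (black) and CD8+ T cells (red) of each library, as UMIs per 10,000 (vertical axes, each from 0) against the library number, with 95% Poisson intervals. Cish and Socs2 are lower in CD8+ T cells in all 6 libraries, Socs3 is lower by less in all 6, and Socs1 is higher in CD8+ T cells in library 1 with 1.12 against 0.549.

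A gene was called where its ratio was at least 1.5-fold in either direction, it had at least 20 UMIs in both kinds of cells together, and every library with at least 5 of its UMIs in either kind went the same way. Of the 4 genes, Cish and Socs2 were called lower in CD8+ T cells, where 4.86% of the 10384 genes with enough UMIs were called lower and 4.96% higher. Socs3 missed the fold and Socs1 missed both the fold and the direction. Of Socs4 to Socs7, 0 of 4 were called, and 3 of them had ratios between 1.04 and 1.11.

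Other genes of the pathway followed the lineage in part. Of 8 listed STAT5 target genes 4 were called lower in CD8+ T cells and 0 higher, with a median log2 ratio of -0.67 beside -0.04 over all genes tested. They were Il2ra, the α chain of the IL-2 receptor, with a ratio of 0.597, the cell cycle genes Cdkn1a (0.477) and Ccnd2 (0.664), and the cytokine gene Lta (0.361). Of 14 cytokine ligand genes 9 had enough UMIs, and Il4, Il5 and Il3 were called lower. Of 20 receptor genes Il2ra and Ifngr2 were called lower and Il10rb higher, with a median of -0.38. Of 11 JAK and STAT genes Jak2 alone was called, at 0.406, with a list median of -0.21. The 9 interferon-γ targets had no call in either direction and a median of -0.02. Of 6 type I interferon targets Usp18 and Rsad2 were called higher, with a list median of 0.82. Of 10 other negative regulators Usp18 was called higher and Pias3 lower, with a median of -0.03.

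Foxp3+ cells were few, and Socs3 was lower in them. The gate of a Foxp3 UMI without Cd8a or Cd8b1 held 97 cells, of which libraries 1, 2 and 3 had 49, 30 and 17 and library 6 had 1. Socs3 had 0.935, 0.565 and 0.297 UMIs per 10,000 in the Foxp3+ cells of libraries 1, 2 and 3, from 10, 3 and 1 UMIs, against 1.99, 0.955 and 1.66 in CD4+ Tconv cells. The ratio of Foxp3+ to CD4+ Tconv cells was 0.432 (0.244 to 0.765). The intervals overlapped in each of these libraries. The ratio was 0.813 with UMIs summed over libraries, 0.273 after thinning each cell to 1000 UMIs and 0.652 with gates of at least 2 UMIs. Socs3 was the only one of the 4 genes called, in a comparison where 13.2% of genes were called lower and 1.94% higher. These cells share their CD4+ Tconv comparison cells with the CD8+ T cells above. Treg cells without a captured Foxp3 UMI would be counted among those comparison cells.

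Cish and Socs2 had uneven values in Foxp3+ cells. Cish had 1.31, 2.83 and 1.49 UMIs per 10,000 in libraries 1, 2 and 3, against 1.27, 0.337 and 2.11 in CD4+ Tconv cells. It was thus 8.39-fold higher in library 2, nearly equal in library 1 and lower in library 3, with a ratio of 1.56 (1.04 to 2.34). Without library 2 the log2 ratio of Cish was -0.076, and with UMIs summed over libraries its ratio was 0.694. Socs2 had a ratio of 4.52 (2.12 to 9.66), but 17 of its 20 UMIs in Foxp3+ cells came from library 1, where the level was 1.59 against 0.211, and without library 1 its log2 ratio was 0.58. With UMIs summed over libraries the Socs2 ratio was 1.03. Socs1, with 14 UMIs, had a ratio of 0.805 (0.445 to 1.45), which was 0.433 without library 2 and 1.68 after thinning. Il2ra, a Treg cell marker, had a ratio of 3.31 (2.23 to 4.93), and Il4, Il5, Il13 and Csf2 had 0 UMIs in the 97 cells. These cells held 195550 UMIs, so a 0 allows up to 0.153 per 10,000, or 3 counts. Cells with these cytokines were rare throughout libraries 1, 2 and 3, with 3, 0 and 4 Il13+ cells and 6, 3 and 18 Il4+ cells.

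Cells with the type 2 cytokine Il13 carried more Socs2 and Cish and less Socs3 than cells with the type 1 cytokine Ifng. There were 154 cells with an Il13 UMI and no Ifng UMI and 2969 with an Ifng UMI and no Il13 UMI. Of the Il13+ cells 50 were in the CD4+ Tconv gate and 8 in the CD8+ gate, and 88 had no UMI of a gating gene, while of the Ifng+ cells 334 and 1514 were in those gates. The Il13+ cells were also deeper, with a median of 3448.5 against 2034 UMIs. Libraries 1, 2 and 3 held 3, 0 and 4 Il13+ cells, so the comparison rests on libraries 4, 5 and 6 with 85, 33 and 29.

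In these 3 libraries Cish had 4.15, 3.59 and 2.35 UMIs per 10,000 in Il13+ cells and 2.04, 2.1 and 1.91 in Ifng+ cells. Socs2 had 2.16, 1.72 and 1.66 against 0.501, 0.775 and 0.597. Socs3 had 0.398, 0.143 and 0 against 0.83, 0.547 and 0.51, where the 0 is from 29 cells and allows up to 0.414, or 3 counts. Each gene went the same way in 3 of 3 libraries, while the gaps of Cish and Socs3 in library 6 and of Socs3 in library 5 were within counting error. Over all libraries the ratios of Il13+ to Ifng+ cells were 1.82 (1.57 to 2.11) for Cish, 3.36 (2.7 to 4.17) for Socs2, 1.05 (0.757 to 1.46) for Socs1 and 0.367 (0.221 to 0.609) for Socs3. Socs3 was called lower, where 14.5% of genes were. Cish and Socs2 were not called because libraries with 3 or 4 Il13+ cells went the other way, in a comparison where 2.55% of genes were called higher. Without library 4, which held most Il13+ cells, the ratios were 1.51 for Cish, 2.37 for Socs2, 1.47 for Socs1 and 0.146 for Socs3, and after thinning that of Socs1 was 0.436.

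The ratios of Cish, Socs2 and Socs3 had the same direction within the CD4+ Tconv gate, which takes out the difference in lineage and was compared after seeing the data. Il13+ against Ifng+ CD4+ Tconv cells had ratios of 1.43 (1.11 to 1.85) for Cish, 2.68 (1.89 to 3.8) for Socs2, 0.797 (0.424 to 1.5) for Socs1 and 0.233 (0.0913 to 0.594) for Socs3. Socs2 was called higher, as were 7.26% of genes, and Socs3 lower, as were 19.5%. The Socs3 ratio rested on 5 UMIs in 50 Il13+ cells, and Cish was higher in 3 of 4 libraries counted. The Il13+ cells were deeper here too, with a median of 3903 against 2103.5 UMIs. This comparison was matched by library and not by depth. Against all CD4+ Tconv cells without an Il13 UMI, the ratios in those with one were 1.28 (1.04 to 1.57) for Cish, 2.93 (2.22 to 3.87) for Socs2, 1.06 for Socs1 and 0.53 (0.298 to 0.945) for Socs3. In that comparison Socs3 was called lower beside 18.2% of genes, and Socs2 was not called, beside 3.84% called higher. When each cell was counted at most once the ratio was 0.92 for Cish and 1.81 for Socs2. After thinning Socs2 had 1.61, and with gates of at least 2 UMIs Socs3 had 0.213. Socs1 had 1.95 without library 4 and 0.535 without library 5.

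The Il13+ cells differed in other cytokine genes as well. Of 10 ligand genes with enough UMIs, Il4, Il5, Il3, Csf2 and Il21 were called higher beside Il13 itself, and Il2 lower beside Ifng itself, and no median is given because Il13 and Ifng chose the cells. Il4 had a ratio of 27.6 (22.9 to 33.3) and Csf2, which encodes GM-CSF, one of 6.25 (5.32 to 7.34). The receptor gene Il4ra had a ratio of 2.18 and Csf2ra of 5.62, and both were called higher. Called lower were Il12rb2, part of the IL-12 receptor, at 0.0969, Ifngr1 at 0.407 and Il6st, which encodes gp130, at 0.555 from only 2 UMIs in Il13+ cells, with a receptor list median of 0.23 beside -0.05 over all genes. Of 11 JAK and STAT genes Stat5a alone was called, lower at 0.488 (0.216 to 1.11). Of 8 STAT5 targets Cdkn1a was called higher, at 3.14, and Pim2 lower, at 0.318, with a list median of 0.88. Of 6 type I interferon targets 5 were called lower. Of the remaining 4 SOCS genes 0 were called, and their median log2 ratio was 0.28.

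Among CD8+ T cells, those with Ifng carried slightly more Cish and Socs2. Cish had 0.267, 0.711, 0.773, 1.6, 1.84 and 1.74 UMIs per 10,000 in Ifng+ and 0.54, 0.129, 0.429, 1.44, 1.36 and 1.2 in Ifng- CD8+ T cells of libraries 1 to 6. It was higher with Ifng in 5 of 6 libraries, with a ratio of 1.27 (1.13 to 1.43). Socs2 was higher in 4 of 6 libraries, with a ratio of 1.67 (1.28 to 2.17). Socs1, a known interferon-γ target, had a ratio of 1.06 (0.887 to 1.27) and Socs3 of 0.818 (0.688 to 0.973), which was 1.05 with gates of at least 2 UMIs. None of the 4 genes was called, where 2.89% of genes were called higher and 2.64% lower.

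The same comparison was made among CD4+ Tconv cells. Cish had a ratio of 0.961 (0.822 to 1.12) between Ifng+ and Ifng- cells, Socs2 of 1.01 (0.785 to 1.3) and Socs1 of 1.04 (0.757 to 1.42). Socs3 had a ratio of 1.47 (1.11 to 1.95), but it was higher in 3 of 6 libraries and lower in the others. None was called beside 5.92% of genes higher and 6.26% lower. Whether these ratios differed between the lineages was not tested.

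**Figure D3:**
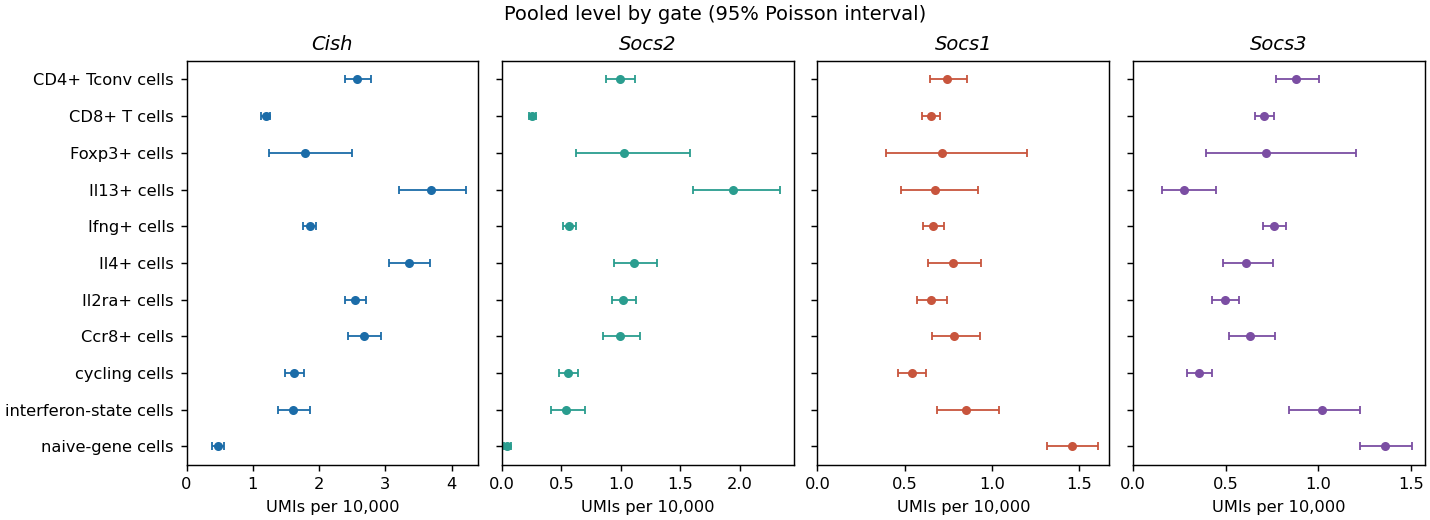
Pooled levels in 11 kinds of cells, as UMIs per 10,000 (horizontal axes, each from 0), with 95% Poisson intervals and libraries not matched. Cish and Socs2 are highest in Il13+ cells, at 3.68 and 1.94, and lowest in naive-gene cells, at 0.47 and 0.041, while Socs1 and Socs3 are highest in naive-gene cells, at 1.46 and 1.36.

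Across 15 kinds of cells, naive-gene cells had the lowest pooled levels of Cish and Socs2 and the highest of Socs1 and Socs3. Il13+ cells had the highest of Cish and Socs2 and the lowest of Socs3, but were at rank 9 for Socs1, at 0.671. Cish was highest in Il13+ cells at 3.68 UMIs per 10,000, followed by Il4+ cells at 3.36 and Il10+ cells at 3.19, which did not differ beyond counting error. Socs2 was highest in Il13+ cells at 1.94 and Il10+ cells at 1.77. Both had their lowest levels in naive-gene cells and their next lowest in CD8+ T cells, at 1.19 for Cish and 0.256 for Socs2, with separate intervals. These levels were pooled over unlike libraries, and within libraries Cish was higher in naive-gene than in CD8+ T cells in libraries 2, 4 and 5, at 0.251, 1.82 and 2.13 against 0.16, 1.54 and 1.62. Socs1 and Socs3 were highest in naive-gene cells, but with intervals that overlapped those of Il10+ cells for Socs1 and Il2+ cells for Socs3. The 6838 cells without a gating gene are not among the 15 kinds. Their Socs3 level of 1.28 (1.21 to 1.36) also overlapped that of naive-gene cells. Socs3 was lowest in Il13+ cells at 0.275 and cycling cells at 0.355. Socs1 was lowest in Gzmb+ cells at 0.513 and cycling cells at 0.539. Apart from naive-gene cells, its levels in the other kinds lay close together, between 0.604 and 0.927. The value of 0.927 was that of Il10+ cells, which were also among the highest for Cish and Socs2.

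The comparisons of cell states were added after seeing the data and were matched by library and depth bin. They were not matched by lineage, and how far the mix of CD4+ and CD8+ cells enters these ratios was not tested. The 2134 naive-gene cells had a Cish ratio to all other cells of 0.565 (0.469 to 0.681) and a Socs2 ratio of 0.223 (0.124 to 0.401), both lower in 6 of 6 libraries. Both were called, where 8.04% of genes were called lower and 0.819% higher. Socs2 UMIs were found in 0.469% of naive-gene cells, at a median depth of 1058 UMIs. In CD4+ Tconv cells the share was 3.45%, 0.662% and 3.25% in libraries 1, 2 and 3, which held most naive-gene cells, and 20%, 20.8% and 13.8% in libraries 4, 5 and 6. No T cell type is known to lack these genes, so the share of UMIs that came from free RNA was not measured. Socs1 had a ratio of 1.39 (1.21 to 1.59) in naive-gene cells, from 1.81 in library 1 to 0.29 in library 6, and was higher in 3 of 6 libraries. Socs3 had a ratio of 1.05 (0.925 to 1.19). The high pooled levels of Socs1 and Socs3 in naive-gene cells thus shrank once libraries and depth bins were matched together.

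Cells with Il2ra mRNA carried more Cish and Socs2, with lineage not matched. The ratio of the 1117 Il2ra+ cells to cells without Il2ra was 1.54 (1.43 to 1.67) for Cish and 2.3 (2 to 2.65) for Socs2, higher in 6 of 6 libraries each. Both were called, where 2.74% of genes were called higher and 3.52% lower. Socs1 had a ratio of 1.09 (0.938 to 1.27) and Socs3 of 0.793 (0.672 to 0.935). The 581 cells with Ccr8, a chemokine receptor gene, had ratios of 1.66 (1.5 to 1.84) for Cish, 2.11 (1.78 to 2.5) for Socs2, 1.18 for Socs1 and 0.791 for Socs3. Cish was called in them beside 2.49% of genes higher and 5.08% lower, and Socs2 was higher in 5 of 6 libraries.

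Other states, also not matched by lineage, set the genes apart in other ways. The 445 Il4+ cells had ratios of 1.8 (1.63 to 1.99) for Cish, 1.94 (1.62 to 2.32) for Socs2 and 1.39 (1.13 to 1.7) for Socs1. These were higher in 5, 3 and 5 of 6 libraries. The 68 Il10+ cells had 1.81, 3.36 and 1.55, higher in 3, 4 and 5 of 6 libraries, with none called in either state. Of the 44 Socs2 UMIs in Il10+ cells 32 came from library 4. Cells with Gzmb, a cytotoxic granule gene, had ratios below 1 for all 4 genes, 0.905 for Cish, 0.619 for Socs2, 0.685 for Socs1 and 0.779 for Socs3, and Socs1 and Socs3 were lower in 6 of 6 libraries. The 772 cycling cells had ratios of 0.632 (0.509 to 0.784) for Socs3 and 0.817 (0.736 to 0.906) for Cish. Cells with the exhaustion marker Pdcd1 had ratios of 1.01 for Cish and Socs3, 0.935 for Socs1 and 1.27 (1.11 to 1.46) for Socs2. The 471 cells with interferon genes had ratios between 0.963 for Cish and 1.21 (0.998 to 1.46) for Socs3. None of the 4 genes was called in these states. The shares of all genes called higher and lower were 1.18% and 9.73% for Il4+, 0.426% and 18.4% for Il10+, 2.37% and 4.21% for Gzmb+, 6.9% and 6.78% for cycling, 1.8% and 3.29% for Pdcd1+ and 1.8% and 5.71% for interferon-gene cells.

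**Figure D4:**
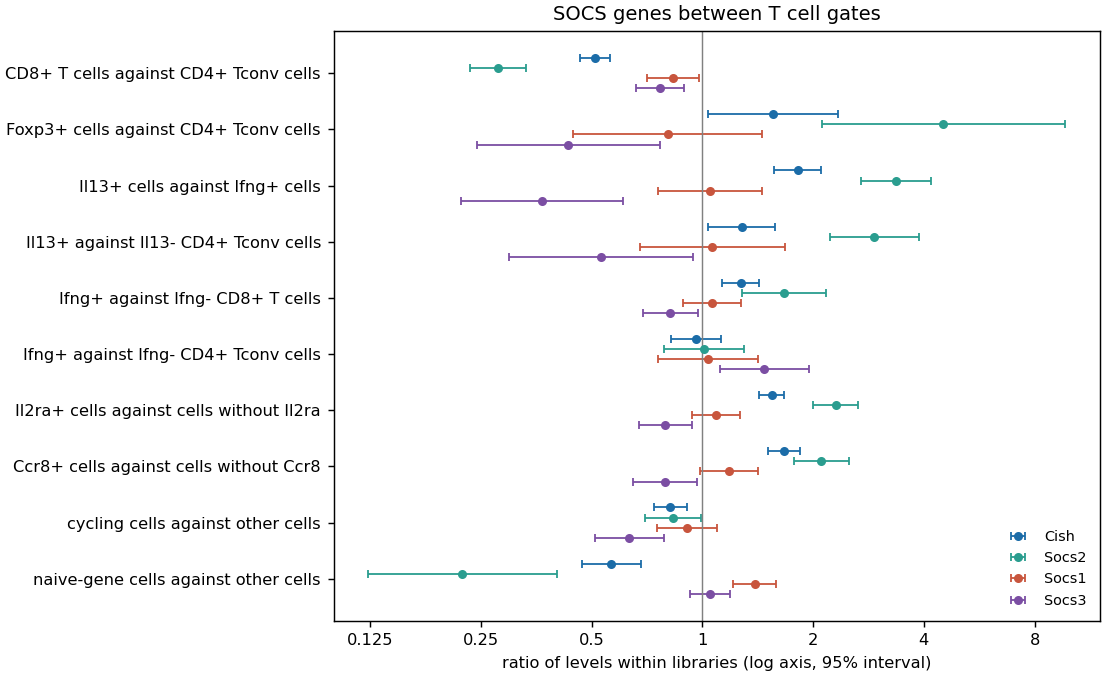
Ratios of the level of each gene between kinds of cells (horizontal log axis, 1 marked by the grey line) with 95% intervals of counting error. The first 6 comparisons are matched by library and the last 4 by library and depth bin. Cish and Socs2 lie on the same side of 1, and Socs3 on the other or nearer to 1, for Il13+ against Ifng+ cells (1.82, 3.36 and 0.367) and for Il2ra+ cells (1.54, 2.3 and 0.793).

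Genes found with Cish included cytokine and chemokine genes. In each comparison cells with a UMI of the named gene were set against cells without, matched by library and depth bin, and the 5 genes with the highest ratios are given. For Cish these were Il5 at 5.11 (4.12 to 6.34), Csf2 at 4.42 (3.88 to 5.03), Calca at 3.3, the chemokine gene Cxcl2 at 3.25 and Ndrg1 at 2.91. The ratio of Csf2 was 9.91 (6.92 to 14.2) within CD8+ T cells alone, and that of Calca was 1.63 (0.827 to 3.2). Among the listed genes Il5, Il3, Csf2 and Lif were called higher of 11 ligands, Il2ra of 20 receptors, and Lta, Il2ra, Bcl2l1 and Cdkn1a of 8 STAT5 targets, beside 2.18% of all genes. The call of Il3 rests on 1 library with enough UMIs, and 0 listed genes were called lower, beside 2.96%. The STAT5 target list had a median log2 ratio of 0.65 beside 0.02 over all genes, and Pim1, a kinase gene of that list, missed the fold at 1.48 although it was higher in 6 of 6 libraries.

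Genes found with Socs2 included the type 2 cytokine genes Il5 and Il13. The highest ratios were 10.8 (6.86 to 17.1) for Cyp11a1, which encodes the enzyme that starts steroid synthesis, 8.14 (6.71 to 9.87) for Il5, 5.64 for Calca, 4.78 for the leukotriene receptor gene Ltb4r1 and 4.59 (4.06 to 5.18) for Il13. The direction of Cyp11a1 rests on 2 libraries with enough UMIs, with 62 UMIs in cells with Socs2 and 31 in cells without. Within CD8+ T cells the ratios of Il5, Calca and Il13 were 1.77, 0.706 and 0.697 with intervals that spanned 1, while Ltb4r1 stayed at 2.85 (1.45 to 5.58). Il5, Il13 and Il2ra were called higher among the listed genes, beside 1.2% of all genes, Il3 was called lower with 1 of its 56 UMIs in these cells, beside 4.45%, and the STAT5 target list had a median of 0.48 beside 0.04. Il10 had a ratio of 7.04 (5.0 to 9.9) and was higher in 4 of 5 libraries, so it was not called.

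Socs1 and Socs3 had smaller ratios and shared the stress gene Gadd45g. For Socs1 the highest were Gzmf, a granzyme gene, at 2.17 (1.58 to 2.97), Gadd45g at 2.09 (1.93 to 2.27), Bicd2 at 1.91, Slc39a4 at 1.67 and Caml at 1.61. The direction of Gzmf rests on 2 libraries with enough UMIs. For Socs3 they were Hspb1, a small heat shock protein gene, at 3.16 (2.67 to 3.73), F2rl2 at 2.17, Gadd45g at 1.94 (1.79 to 2.1), Cnst at 1.87 and Slc12a7 at 1.83. Of the listed genes 0 were called higher in cells with Socs1, beside 1.28% of all genes, and Il3 was called lower, beside 2.8%. In cells with Socs3 Osm, a gp130 cytokine gene, was called higher at 1.85 (1.21 to 2.82), beside 1.32%. Called lower there, beside 2.63%, were Csf2 at 0.552 (0.459 to 0.663), Pias3 at 0.409, Lif at 0.505 and Il3 with 0 UMIs. The type I interferon targets had a median log2 ratio of 0.78 in cells with Socs1, with Ifit1 at 2.03 and Usp18 at 1.78, but each of their 6 genes was lower in at least 1 library. In cells with Socs3 their median was 0.07.

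The 4 genes were also found together in single cells. No gene of the 4 was found in 8064 cells, 1 in 3651, 2 in 941, 3 in 148 and all 4 in 14, with median depths of 1084, 1533, 2308, 3436.5 and 5907 UMIs. Cish and Socs2 UMIs were both present in 308 cells where 230.4 were expected from their shares in each library and depth bin, an odds ratio of 1.83 (1.54 to 2.16). Socs1 and Socs3 were both present in 268 cells where 202.5 were expected, an odds ratio of 1.5 (1.29 to 1.74). These were the highest odds ratios of the 6 pairs. Matched by library only, the odds ratio of Cish and Socs2 was 2.23. Depth still varied within each of the 4 bins, and its effect on the odds ratios was not tested.

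The other pairs had odds ratios of 1.35 (1.09 to 1.67) for Socs2 with Socs1, 1.31 (1.13 to 1.52) for Cish with Socs1, 1.21 (1.04 to 1.4) for Cish with Socs3 and 1.02 (0.806 to 1.3) for Socs2 with Socs3. The odds ratio of Cish and Socs2 was above 1 in each library alone, from 1.47 in library 4 to 10.9 in library 2, where only 3 cells held both. Within the CD4+ Tconv gate it was 1.44 (0.992 to 2.1) and within the CD8+ gate 1.38 (0.997 to 1.91). In CD8+ T cells the odds ratios of Cish with Socs1, at 1.67 (1.32 to 2.11), Socs2 with Socs1, at 1.57, and Socs1 with Socs3, at 1.76, were higher, with overlapping intervals. In CD4+ Tconv cells Cish with Socs1 had 1.45, so Cish with Socs2 did not stand out within either gate. Socs1 with Socs3 had only 1.16 (0.715 to 1.87) in CD4+ Tconv cells. In all cells the interval of Socs1 with Socs3 overlapped that of every other pair.

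**Figure D5:**
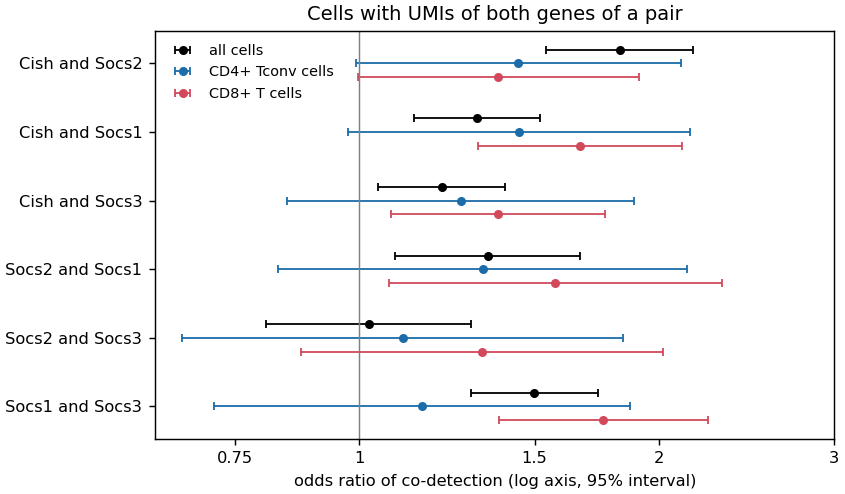
Odds ratios for finding UMIs of both genes of a pair in the same cell (horizontal log axis, 1 marked by the grey line), matched by library and depth bin, with 95% intervals, for all cells, CD4+ Tconv cells and CD8+ T cells. In all cells Cish with Socs2 (1.83) and Socs1 with Socs3 (1.5) are the highest pairs and Socs2 with Socs3 (1.02) is the lowest.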

How the data were processed

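Per the labels and the methods, the authors made 10x 5′ libraries from sorted TCRβ+ T cells, mapped them to mm10 (the submitters' processing notes name mm9), merged them with cell ranger aggr and filtered cells in Seurat. The annotation version and strand setting are not given in the sources used here. The deposited values are raw, unnormalized UMI counts for each gene in each cell, and 0 cells were tied to a sample. All 14597 genes and 12818 cells were used, no doublet caller was run, and 0 further sample columns were left out.

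Gates used the presence of UMIs. The naive-gene gate used 4 of its listed genes, and another listed gene is not reported here. Levels are UMIs per 10,000 with exact Poisson intervals. Ratios are Mantel-Haenszel rate ratios over libraries, or over libraries and 4 depth bins of equal cell number, and co-detection is the Mantel-Haenszel odds ratio, in Python 3.11.15 with numpy 2.4.6 and scipy 1.17.1. The ratio code was checked on simulated counts. The 6 libraries were not treated as group replicates, and intervals cover counting error only. Named genes were the 4 SOCS genes, up to 4 genes of each of 8 pathway lists by UMIs plus the genes called, and the 5 genes with the highest ratio in cells with each SOCS gene (at least 50 UMIs, higher in every library counted). The genes and lists were chosen with earlier results of these data known. Alternatives were another matching, thinning to 1000 UMIs, gates of at least 2 UMIs, each cell counted once, ribosomal and mitochondrial genes left out, and leaving out each library. Sequences are from the RefSeq GRCm38.p6 promoter table and gene models from GENCODE.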

Additional observations from a re-analysis of the deposited data

How the results depend on the processing

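The ratios of 5 comparisons of gates, the pooled levels and the odds ratios were computed again under the alternatives that apply to each. So were counts of called genes, giving 348 values in all. Of these, 282 were scored as unchanged, 66 as moved, and 0 turned the direction of a called gene. Unchanged meant within the interval of the reported value, except for 8 counts of called genes in CD8+ T cells alone. Those counts had no interval. Genes that were not called did change direction in places. In Foxp3+ cells Cish did so without matching by library, and Socs1 after thinning. Cish did so in Il13+ against Il13- CD4+ Tconv cells with each cell counted at most once. Socs3 did so in Ifng+ CD8+ T cells with gates of at least 2 UMIs. Matching by library and depth bin kept all 20 ratios of gates within their intervals. The comparisons of cell states, of Ifng+ with Ifng- CD4+ Tconv cells and of Il13+ with Ifng+ CD4+ Tconv cells were not computed again. The settings below are given as log2 ratios, and the cause of each shift was not tested.

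Without matching by library, CD8+ against CD4+ Tconv cells gave -1.11 for Cish. Foxp3+ against CD4+ Tconv cells gave -0.53 for Cish, 0.044 for Socs2 and -0.30 for Socs3. Ifng+ against Ifng- CD8+ T cells gave 0.81 for Cish, 1.18 for Socs2, -0.24 for Socs1 and -0.56 for Socs3.

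With each cell counted at most once, CD8+ against CD4+ Tconv cells gave -0.73 for Cish and -1.57 for Socs2, Il13+ against Ifng+ cells 0.44 and 1.29, Il13+ against Il13- CD4+ Tconv cells -0.12 and 0.86, and Ifng+ against Ifng- CD8+ T cells 0.32 for Socs2. With gates of at least 2 UMIs, CD8+ against CD4+ Tconv cells gave -0.66 for Socs3, Foxp3+ cells 0.79 for Socs1, Il13+ against Il13- CD4+ Tconv cells 1.98 for Socs2 and -2.23 for Socs3, and Ifng+ CD8+ T cells 0.072 for Socs3. Thinning every cell to 1000 UMIs left out 4705 of 12818 cells and gave values for 18 of 20 ratios. Foxp3+ cells then had 0.44 for Socs2 and 0.75 for Socs1, Il13+ against Ifng+ cells 1.14 for Cish, 1.37 for Socs2 and -1.20 for Socs1, and Il13+ against Il13- CD4+ Tconv cells 0.76 for Cish and 0.69 for Socs2. Within CD4+ Tconv cells alone, Il13+ against Ifng+ cells had 0.52 for Cish and 1.42 for Socs2.

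Leaving out each library in turn gave ranges of -0.076 to 1.15 for Cish, 0.58 to 2.61 for Socs2 and -1.21 to 0.11 for Socs1 in Foxp3+ against CD4+ Tconv cells. Il13+ against Ifng+ cells ranged from 0.59 to 0.93 for Cish, 1.24 to 1.98 for Socs2, -0.39 to 0.55 for Socs1 and -2.78 to -1.31 for Socs3, and Socs1 in Il13+ against Il13- CD4+ Tconv cells from -0.90 to 0.97. The pooled levels per 10,000 UMIs ranged from 1.36 to 1.78 for Cish, 0.378 to 0.541 for Socs2, 0.745 to 0.906 for Socs1 and 0.816 to 1.1 for Socs3. The median of the 6 libraries was 1.41, 0.385, 0.878 and 1.01, and without ribosomal and mitochondrial genes in the total the levels were 2.44, 0.726, 1.3 and 1.47. Matched by library only, the log2 odds ratio was 1.15 for Cish with Socs2 and 0.64 for Cish with Socs1.

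The Foxp3+ and Il13+ values rest on 97 and 154 cells and for Socs3 on 14 and 16 UMIs. No paired analysis was possible because no cell was tied to a sample, although the labels give PBS and DTx samples the same replicate numbers. The planned comparison of PBS with DTx, by edgeR on UMIs summed per sample and gate, was not run for the same reason. The values within CD4+ Tconv cells alone and without naive-gene cells were chosen after seeing the data.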

Other observations

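In cells with UMIs of Cish the genes next in ratio after the first 5 were Areg, which encodes amphiregulin, at 2.46 (2.27 to 2.68), Ltb4r1 at 2.39, Fes at 2.29 and Ccr8 at 2.28 (1.97 to 2.65), each higher in every library counted. In cells with Socs2 they were Ramp1, part of the receptor for the peptide that Calca encodes, at 3.63 (3.03 to 4.35), Ptpn9 at 2.07, Il2ra at 2.06 and Atf3 at 2.06. Ramp1 stayed at 3.06 (1.65 to 5.68) within CD8+ T cells, while Calca had 0.706 (0.181 to 2.76) there. Bcl3, an IκB family gene, was among the leading genes of both Socs1 and Socs3, at 1.51 (1.31 to 1.74) and 1.74 (1.52 to 2.0). These genes were chosen after their values were seen.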
